A study of Mus musculus with 2 samples.

Results

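The genes described here are 35 that encode chromatin remodelers: 26 subunits of the SWI/SNF (BAF) complexes and 9 ATPases of other remodeler families. They were chosen by name, through the Ensembl gene identifiers, out of 43346 Ensembl gene rows in each of 2 deposited libraries, and all 35 have a row in both. Their 222 transcript rows were read from the matching transcript tables. The rule uses no measured value, although earlier results of these data were known when the genes were listed.

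ATP-dependent remodelers use the energy of ATP hydrolysis to slide, eject or restructure nucleosomes, which changes how easily DNA-binding proteins reach their sites. Mammalian SWI/SNF complexes carry 1 ATPase, either BRG1 (Smarca4) or BRM (Smarca2), on a shared core, and are sorted by their other subunits into BAF (with ARID1A or ARID1B), PBAF (with ARID2, PBRM1 and BRD7) and the non-canonical ncBAF (with BRD9). Several positions in the complex are filled by 1 of a few paralogs, and exchange of these paralogs accompanies differentiation, best known in neurons and in heart and skeletal muscle. ISWI enzymes space nucleosomes, CHD enzymes carry chromodomains, and INO80 acts on nucleosomes that hold H2A.Z. In the early limb bud, these proteins work in a proliferating mesenchyme that gives rise to cartilage and connective tissue, with muscle precursors that migrate in from the somites.

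Total RNA was sequenced from limbs of mouse embryos of the B6NCrl strain at embryonic day 10.5, males and females together. The design holds 1 group. Replicate 1 is a pool of 69 embryos and replicate 2 a pool of 51, each made into 1 library from 10 ng of RNA with added spike-in transcripts. There is no treated, mutant or second tissue group, so the design lets levels be compared among genes, transcripts and the 2 pools. The labels do not say whether fore- and hindlimbs were taken in equal part.

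The libraries held 40509328 and 43983028 expected counts, of which spike-ins took 3.89% and 3.45%. They differed by more than sampling noise (chi-square per degree of freedom 31.2 over 16878 genes), so they are not copies of 1 library. All 6 markers of limb mesenchyme in a list used for this check were present in both libraries at 1 TPM (a share of transcripts, scaled for length and depth) or more, with Prrx1, a limb mesenchyme transcription factor, at 141 and 184 TPM. With 2 libraries, the smallest two-sided p an exact permutation test could give is 0.5, so no p-value is given. Differences are set against the spread between the pools and against the intervals deposited with each TPM, whose level is not given in the sources used here. For 4 members the deposited TPM lay outside its own interval in at least 1 library. In whole limbs, fewer cells of a type and less RNA per cell cannot be told apart.

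Several of these genes had 2 coding transcripts, each at 10% or more of the gene, whose coding sequences differ in short stretches. Those stretches are printed here to show how the coding forms compared below differ. The transcript models also differ outside them: Smarca4-202 is 6376 bases long and Smarca4-204 is 5405. The transcript shares below are therefore not measured from these stretches alone. Capitals mark bases that are coding in the first named transcript and not coding in the second, where they may be absent or untranslated. Lower case marks up to 12 flanking coding bases. All are 5′ to 3′ on the gene's strand, read from the GENCODE M21 transcripts (GRCm38, the mm10 assembly), and all are multiples of 3 bases long.
Smarcb1-201 against Smarcb1-202, chr10:75916773-75916799, minus strand: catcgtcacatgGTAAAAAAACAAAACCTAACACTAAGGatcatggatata
Smarca4-202 against Smarca4-204, chr9:21686013-21686021, plus strand: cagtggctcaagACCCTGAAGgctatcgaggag
Smarca4-202 against Smarca4-204, chr9:21699800-21699802, plus strand: gtacaaagacagCAGcagtggacgtca
Chd4-202 against Chd4-203, chr6:125100778-125100798, plus strand: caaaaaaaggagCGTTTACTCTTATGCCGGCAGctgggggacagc
Chd4-202 against Chd4-203, chr6:125102432-125102470, plus strand: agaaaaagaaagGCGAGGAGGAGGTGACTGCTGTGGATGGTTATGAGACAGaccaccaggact
Arid1b-202 against Arid1b-203, chr17:5264032-5264121, plus strand: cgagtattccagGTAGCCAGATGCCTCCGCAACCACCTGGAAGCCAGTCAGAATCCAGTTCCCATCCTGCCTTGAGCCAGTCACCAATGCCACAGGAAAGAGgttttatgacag
Smarca1-202 against Smarca1-203, chrX:47811137-47811157, minus strand: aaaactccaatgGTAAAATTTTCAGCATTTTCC
Smarca1-203 against Smarca1-202, chrX:47810052-47810120, minus strand: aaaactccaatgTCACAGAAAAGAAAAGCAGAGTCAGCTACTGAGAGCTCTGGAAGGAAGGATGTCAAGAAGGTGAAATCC
The Smarcb1 stretch of 27 bases directly follows a coding exon that both transcripts share, so it lengthens that exon. The Smarca4 and Chd4 stretches directly precede a shared exon. The Arid1b stretch of 90 bases is an exon of its own, and Arid1b-202 also has a coding start of 1356 bases, not printed, that is not coding in Arid1b-203. The paired Smarca1 stretches are alternative ends of the coding sequence: 21 bases that continue the last shared exon, or 69 bases in the following exon.

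Of the 35 genes, 34 reached 1 TPM or more in both libraries, against 55.2% of the 21474 protein-coding genes. The exception was Actl6b. The members' median of mean TPM was 37.6, against 21.3 over the 11853 expressed protein-coding genes, and 28 members lay above that median. Ordered by mean TPM, the highest were Smarce1 (312), Smarcb1 (243), Actl6a (240.2) and Dpf2 (177), followed by Smarca4 (142), Pbrm1 (136), Ss18 (129) and Smarcc1 (122). At the low end, above Actl6b, stood Arid1b (9.72), Ss18l1 (5.53), Ino80 (2.88) and Dpf3 (2.15). Of the 34 neighbouring pairs in this order, only 9 had intervals that stayed apart in both libraries, so many neighbours do not differ beyond their error. Of the 8 highest, 5 are core subunits, here those found in both BAF and PBAF. Of the others, Dpf2 is a BAF subunit, Pbrm1 a PBAF subunit, and Ss18 is found in BAF and ncBAF. Further core subunits stood far lower, such as Smarca2 and Bcl7a (34.9 each), Smarcd3 (24.4) and Actl6b (no counts). A high level is therefore not shared by the core subunits as a class. The 4 lowest include paralogs best known from neurons (Actl6b, Ss18l1) and from heart and muscle (Dpf3).

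**Figure D1:**
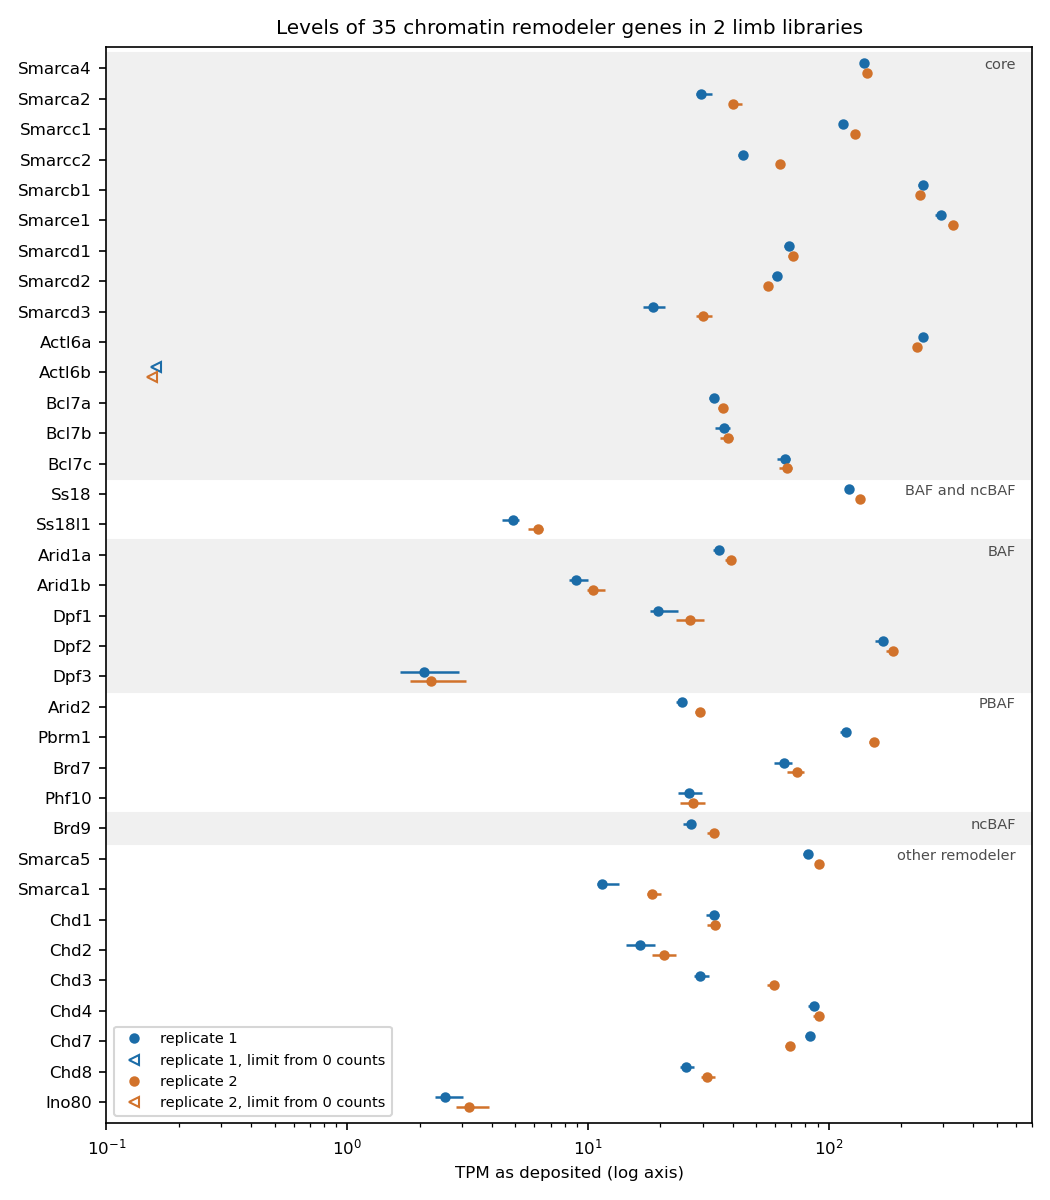
Deposited TPM of each of the 35 genes (log axis) in replicate 1 (blue) and replicate 2 (orange), with lines for the deposited intervals, shaded by the complex in which each subunit is found. Points run from 330.2 TPM for Smarce1 in replicate 2 to 2.08 TPM for Dpf3 in replicate 1, and open triangles mark the TPM that 3 counts would give for Actl6b, which had none.

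Paralogs of 1 position were compared within each library as the log2 ratio of their TPM values, each with 0.01 added. Of 24 such pairs, the intervals of 22 were apart in each library with the same gene on top. The 2 others, Phf10 with Dpf1 and Bcl7b with Bcl7a, were apart in replicate 1 only. Because short or non-coding transcripts can carry much of a gene's TPM, each ratio was also taken over transcripts whose annotated coding sequence is at least 80% of the gene's longest, called near-full-length here.

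**Figure D2:**
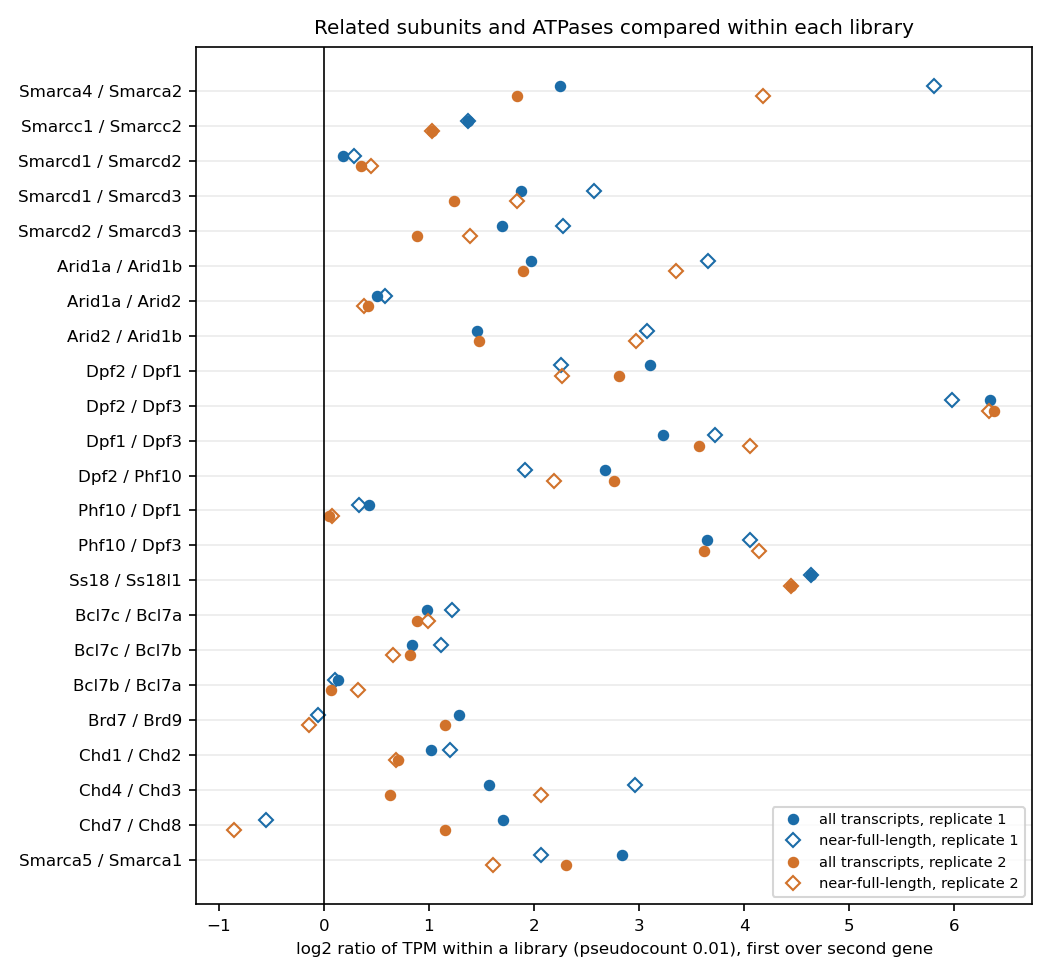
Log2 ratio of TPM (first over second gene) for 23 pairs in replicate 1 (blue) and replicate 2 (orange), over all transcripts (filled circles) and over near-full-length coding transcripts (open diamonds); Actl6a with Actl6b is left out because Actl6b had no counts. The diamonds cross 0 for Brd7 with Brd9 and for Chd7 with Chd8, and lie far to the right of the circles for Smarca4 with Smarca2.

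Smarca4 (chr9:21616169-21704230, plus strand), the BRG1 ATPase, stood at 141 TPM in replicate 1 and 144 in replicate 2. Smarca2 (chr19:26605050-26778322, plus strand), which encodes the alternative ATPase BRM, stood at 29.6 and 40.1. Smarca4 was higher by 2.25 and 1.84 on the log2 scale and made up 80.4% ± 3.14 (SD, n = 2) of the ATPase transcripts. The gap was wider over near-full-length transcripts. Those of Smarca2 came to 2.49 and 7.88 TPM, 8.41% and 19.6% of the gene, and on this measure Smarca4 was higher by 5.81 and 4.18. The size of that gap is uncertain. In replicate 1, Smarca2-201 was at 1.73 TPM, outside its own deposited interval of 0.0190 to 1.55, and its model has another length in GENCODE M21. The leading Smarca2 transcript in both libraries was Smarca2-215, which is annotated to undergo nonsense-mediated decay and covers only the 3′ part of the gene. It held 43.8% and 40.6% of the gene's TPM. Smarca2-203, Smarca2-205 and Smarca2-210, short coding transcripts of the same region, added 13.9%, 10.1% and 7.38% in replicate 1. Most Smarca4 TPM was in 2 near-full-length transcripts: Smarca4-204 stood at 88.3 and 94.8 TPM, and Smarca4-202, with the 9 and 3 bases shown above, at 46.5 and 48.7. As quantified over the whole models, Smarca4-202 was thus 34.5% and 33.9% of the pair, a share that moved by less than 1 percentage point between pools.

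The scaffold pair BAF155 (Smarcc1) and BAF170 (Smarcc2), which dimerize at the base of the complex, was led by Smarcc1. Its values were 115 and 129 TPM, against 44.3 and 62.8 for Smarcc2, and the log2 ratio was 1.37 in replicate 1 and 1.03 in replicate 2. Smarcc1 made up 69.6% ± 3.48 (SD, n = 2) of the pair.

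Smarcb1 (chr10:75896769-75921617, minus strand), the BAF47 subunit that contacts the nucleosome's acidic patch and a known tumour suppressor, was measured at 246 and 239.6 TPM. The form with the 27 added bases, Smarcb1-201, reached 149 and 148 TPM, and the form without them, Smarcb1-202, reached 93.5 and 88.0. The longer form was 61.4% of their sum in replicate 1 and 62.6% in replicate 2, so both coding forms were abundant in both pools. Smarce1, the HMG-box subunit BAF57, had the highest level of all members at 294 and 330.2 TPM. Its near-full-length transcripts came to 213 and 244 TPM, still among the highest values, and short processed transcripts held most of the rest.

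BAF60 subunits link the complex to transcription factors. Smarcd1 stood at 68.7 and 71.2 TPM and Smarcd2 at 60.8 and 56.0, a log2 ratio of only 0.18 and 0.35. Smarcd3, the BAF60C paralog known for its part in heart and skeletal muscle, was lower at 18.7 and 30.1 TPM. It made up 12.6% of the BAF60 transcripts in replicate 1 and 19.2% in replicate 2. Exons of Smarcd3 overlap those of Chpf2 on the opposite strand over 48.2% of their bases, and Chpf2 itself was at 11.5 and 14.7 TPM. Whether counting used strand is not given in the sources used here, so the level of Smarcd3 is uncertain to that extent. Smaller overlaps with opposite-strand genes touch 7.13% of the exon bases of Smarcd1 and 9.56% of those of Phf10. Smarcd2 had a second coding transcript with an inner start, Smarcd2-203, at 12.5 and 10.2 TPM against 43.6 and 41.8 for Smarcd2-201. Its coding sequence begins with 75 bases at chr11:106267519-106267593 (minus strand) that are found in place of the first 216 coding bases of Smarcd2-201:
Smarcd2-203, start of the coding sequence in capitals, shared bases in lower case: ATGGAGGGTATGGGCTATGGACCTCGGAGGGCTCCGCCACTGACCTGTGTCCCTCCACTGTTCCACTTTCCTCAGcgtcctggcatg

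The actin-related BAF53 position showed the largest difference. Actl6a (chr3:32706298-32726973, plus strand), the BAF53A form of proliferating cells, stood at 247 and 234 TPM, with 11807 and 11696 expected counts. Actl6b (chr5:137553517-137569582, plus strand), the BAF53B form of postmitotic neurons, had 0 counts in both libraries, and the 3 counts that such a result allows would be 0.161 TPM in replicate 1 and 0.154 in replicate 2. Against that counting floor, which covers counting error only, Actl6a was at least 1534-fold and 1513-fold higher. The deposited intervals allow more: for Actl6b, despite its lack of counts, they run from 0.160 to 0.985 TPM and from 0.153 to 0.948, and the deposited posterior mean averages 0.530. The lower bound of Actl6a was 242-fold and 238-fold above those upper bounds, so the direction is the same and the size of the fold depends on the limit used. The neighbouring gene Mrpl47, on the opposite strand, shares 11.6% of the Actl6a exon bases and was at 34.5 and 29.7 TPM. Neuron markers were low but not absent in the same libraries, with a median of 1.82 TPM and summed levels of 23.5 and 27.4 TPM. Of 8 such markers, 5 reached 1 TPM, against 55.2% of all protein-coding genes. The highest were Dcx at 9.17 and 12.9 TPM and Tubb3 at 6.59 and 5.76.

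The upstream sequences of this pair are shown because 2 genes of such different level can be compared base by base. Each run is the 250 bases before the RefSeq start (GRCm38.p6), 5′ to 3′ on the gene's strand, with each CG dinucleotide in capitals.
Actl6a, chr3:32708296-32708545, plus strand: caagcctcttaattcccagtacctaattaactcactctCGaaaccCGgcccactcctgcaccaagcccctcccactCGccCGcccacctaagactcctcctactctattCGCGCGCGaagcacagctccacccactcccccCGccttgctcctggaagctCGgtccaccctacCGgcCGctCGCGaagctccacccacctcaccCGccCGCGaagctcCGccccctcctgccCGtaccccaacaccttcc
Actl6b, chr5:137553296-137553545, plus strand: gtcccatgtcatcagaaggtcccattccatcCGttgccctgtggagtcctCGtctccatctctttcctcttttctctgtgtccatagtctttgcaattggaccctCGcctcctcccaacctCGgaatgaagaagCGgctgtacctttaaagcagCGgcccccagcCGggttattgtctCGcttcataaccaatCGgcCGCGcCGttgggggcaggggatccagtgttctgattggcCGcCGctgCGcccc
The printed runs hold 19 CG dinucleotides for Actl6a and 15 for Actl6b, so both are CG-rich and the gene without counts does not stand apart by this measure. Over 300 bases (250 before and 50 after the start), the counts were 21 and 23. RefSeq windows were found for 27 of the 35 genes and came to 30 windows with a median of 32.0 CG dinucleotides. Over all 32851 windows the median was 7. At least 20 CG dinucleotides were present in 86.7% of the member windows and in 26.5% of all windows. The motif GGGCGG, on either strand, was in 96.7% of member windows and 35.7% of all. TATAAA, on either strand, was in 3.33% and 13.6%. The CG dinucleotide can be part of GGGCGG, so these counts overlap. The background windows were not limited to expressed genes, while nearly all members were expressed, so the 2 sets are not matched. Member windows were also not limited to starts that carry much of the gene's TPM. For Chd8 and Smarcd1, no transcript model began within 150 bases of the RefSeq start. These are matches of letters only, and no binding was measured.

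At the SS18 position, Ss18 stood at 122 and 135 TPM and Ss18l1, the CREST paralog known from neurons, at 4.88 and 6.18. Ss18 was higher by 4.64 and 4.45 on the log2 scale and made up 95.9% ± 0.359 (SD, n = 2) of the pair. The BCL7 proteins, small subunits that bind near the ATPase, were closer to each other. Bcl7c was at 66.2 and 67.4 TPM, Bcl7b at 36.9 and 38.2, and Bcl7a at 33.5 and 36.4. Over protein-coding transcripts the lead of Bcl7c over Bcl7a shrank to 0.46 and 0.22 on the log2 scale, and over near-full-length transcripts it was 1.22 and 0.99. Part of the Bcl7c TPM lay in a processed and a decay transcript, and part of the Bcl7a TPM in a shorter coding one.

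Of the large ARID subunits that define the complexes, Arid1a was the most abundant at 35.1 and 39.2 TPM. Arid2, the PBAF form, followed at 24.6 and 29.3, and Arid1b was lowest at 8.95 and 10.5. The log2 ratio of Arid1a to Arid1b was 1.97 and 1.90, and that of Arid1a to Arid2 was 0.51 and 0.42. The order held over near-full-length transcripts, where Arid1a exceeded Arid1b by 3.66 and 3.35. That wider gap depends on where the length limit lies. The leading Arid1b transcript, Arid1b-203, was 52.2% and 52.7% of the gene, and its coding sequence is 78.5% of the longest, just under the 80% limit. Arid1b-202, which holds the 90-base exon shown above and a longer start, reached 2.01 and 2.85 TPM against 4.67 and 5.52 for Arid1b-203.

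The BAF45 proteins carry paired PHD fingers, and PHF10 is the form found in PBAF. Dpf2, the broadly expressed form, stood at 169 and 186 TPM. Phf10 was at 26.3 and 27.4, Dpf1, known from neurons, at 19.5 and 26.5, and Dpf3, known from heart and muscle, at 2.08 and 2.22. Dpf2 exceeded Dpf1 by 3.11 and 2.81 on the log2 scale and Dpf3 by 6.34 and 6.38. Part of the Dpf2 level was outside full coding transcripts: Dpf2-201, annotated to undergo nonsense-mediated decay, held 35.8% and 37.0%, about as much as the coding Dpf2-202 at 34.5% and 34.3%. Over near-full-length transcripts Dpf2 came to 66.7 and 71.0 TPM and remained highest of the 4. Dpf1 was at 23.0 ± 4.93 TPM (SD, n = 2), so of the forms known from neurons it was present where Actl6b had no counts. The counts of Dpf1 differed by only 0.03 on the scaled log2 scale, and the higher TPM in replicate 2 went with a lower share of its leading transcript, 41.9% against 58.0%.

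Bromodomain proteins mark PBAF and ncBAF. Pbrm1 (polybromo, chr14:31019138-31121592, plus strand), which carries several bromodomains, was at 118 and 155 TPM. Its leading transcript, Pbrm1-215, held 53.5% and 51.1% and encodes at most 54.7% of the longest coding sequence, over the 5′ part of the gene. Near-full-length Pbrm1 came to 23.9 and 26.7 TPM, which is close to Arid2 at 19.8 and 24.1 on the same measure. Brd7 (chr8:88331039-88362194, minus strand) stood at 65.5 and 74.1 TPM and Brd9, the ncBAF subunit, at 26.7 and 33.5, so Brd7 was higher by 1.29 and 1.15 on the log2 scale. That order did not hold over near-full-length transcripts, where the ratio was -0.05 and -0.14. The processed transcript Brd7-203, 511 bases long, carried 39.1% and 40.5% of the Brd7 TPM.

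The TPM of subunits particular to each complex was summed. BAF subunits (Arid1a, Arid1b, Dpf1, Dpf2, Dpf3) made up 46.3% ± 1.45, PBAF subunits (Arid2, Pbrm1, Brd7, Phf10) 48.1% ± 1.21 and the ncBAF subunit Brd9 5.56% ± 0.247 (SD, n = 2) of the total. The order of BAF and PBAF depends on which transcripts are summed. Over near-full-length transcripts the shares were 49.1% for BAF, 38.4% for PBAF and 12.5% for ncBAF. Over all protein-coding transcripts they were 37.6%, 53.8% and 8.55%. Each sum covers another number of genes and counts messenger RNA, so it is not a share of complexes.

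Among the ISWI ATPases, Smarca5 (SNF2H), the broadly expressed enzyme, was at 81.8 and 91.5 TPM. Smarca1 (SNF2L), known from differentiating neurons, was at 11.4 and 18.5. The log2 ratio was 2.84 and 2.31, and over near-full-length transcripts, 2.07 and 1.61. A retained-intron transcript, Smarca5-202, carried 43.3% and 43.9% of Smarca5. The alternative coding ends of Smarca1 shown above were of similar level: Smarca1-202 reached 4.91 and 7.95 TPM and Smarca1-203 reached 3.73 and 6.89. Smarca1-202 was 56.8% of their sum in replicate 1 and 53.6% in replicate 2.

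In CHD subfamily I, Chd1, whose chromodomains bind methylated H3K4, stood at 33.5 and 33.7 TPM and Chd2 at 16.5 and 20.7. Exons of Chd2 share 18.4% of their bases with the same-strand gene 1810026B05Rik, which makes the Chd2 level uncertain. In subfamily II, the ATPases of the NuRD deacetylase complex, Chd4 was at 86.9 and 91.4 TPM. Chd3 (chr11:69343273-69369406, minus strand) was at 29.3 and 59.1, the widest relative gap between pools among the members. Chd4 led by 1.57 and 0.63 on the log2 scale. Non-coding transcripts, mostly with retained introns at the 3′ end, held 57.9% and 56.3% of Chd3, and near-full-length Chd3 came to 8.92 and 18.3 TPM. The 2 main coding forms of Chd4 were close: Chd4-202, with the 21- and 39-base stretches, reached 36.1 and 40.7 TPM and Chd4-203 reached 30.5 and 33.8.

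In subfamily III, Chd7 (chr4:8690406-8867659, plus strand), the gene mutated in CHARGE syndrome, stood at 83.8 and 69.2 TPM and Chd8 at 25.6 and 31.2. Chd7 was higher by 1.71 and 1.15 on the log2 scale over all transcripts. Over near-full-length transcripts the order turned, with Chd7 at 11.5 and 10.9 TPM, Chd8 at 16.8 and 19.6, and a ratio of -0.55 and -0.85. Chd7-203, a coding transcript of 2381 bases with 21.1% of the longest coding sequence, held 57.5% and 55.7% of Chd7. Chd7-206, which reaches the 3′ part of the gene, held 25.9% and 25.6%, and the full Chd7-202 13.6% and 15.7%. Ino80, the ATPase of the INO80 complex, was low at 2.55 and 3.22 TPM, with 426.00 and 507.00 expected counts.

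Over the 34 members with counts, 4 have 1 transcript in the tables. Of the other 30, 28 had the same leading transcript in both libraries, the exceptions being Dpf3 and Chd3. The leading transcript is annotated as protein-coding for 32 of 34 in replicate 1 and for 31 in replicate 2, where a retained-intron transcript of Chd3 led. Near-full-length transcripts made up a median of 69.5% of a member's TPM in replicate 1 and 66.5% in replicate 2. They were at least 90% in both libraries for 10 members and under 50% in both for 9. The genes whose level is mostly near-full-length coding RNA, such as Smarca4, Smarcc1, Smarcb1 and Ss18, therefore differ from Smarca2, Pbrm1, Brd7, Chd3 and Chd7, where most of the gene's TPM lay elsewhere. No share over all genes is set beside these transcript counts, so they describe the members only. Of the 222 transcript models, 191 have the same length in GENCODE M21, from which the coding sequences were taken, as in the deposited tables; of the 72 near-full-length ones, 59 do. Shares of transcripts that overlap in sequence are estimates of the quantification, and 2 transcripts can also differ in their untranslated ends.

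**Figure D3:**
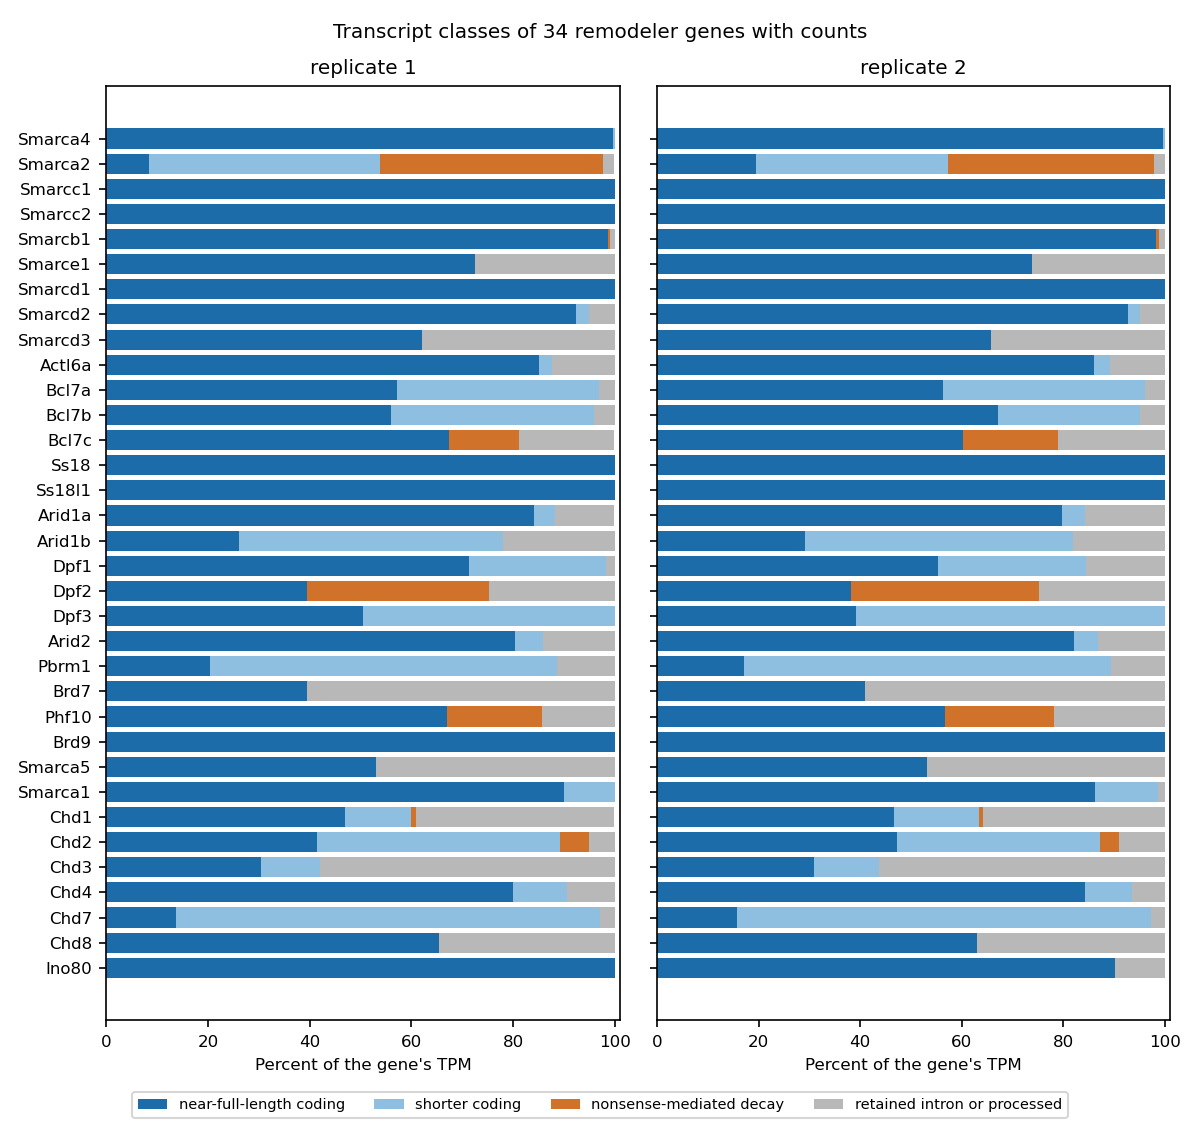
Percent of each gene's TPM in near-full-length coding transcripts (dark blue), shorter coding transcripts (light blue), transcripts annotated to nonsense-mediated decay (orange) and retained-intron, processed or unclassified transcripts (grey), for replicate 1 (left) and replicate 2 (right). The near-full-length part is 8.41% and 19.6% for Smarca2 and 13.7% and 15.7% for Chd7, and the panels look alike for most genes.

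The pools were compared by the log2 difference in counts scaled with TMM, replicate 2 minus replicate 1, with a 95% exact binomial interval that covers counting error only. Of the 34 members whose mean count reached 10, 4 were higher in replicate 2 by at least 0.5, against 12.2% of the 16860 genes tested, and 0 were lower by 0.5, against 5.89%. The 4 were Chd3, with a difference of 0.87 (0.80 to 0.94), Smarca2 with 0.71 (0.61 to 0.81), Smarcd3 with 0.68 (0.55 to 0.82) and Smarca1 with 0.53 (0.43 to 0.63). At this count limit, 4 of 34 is near the share over all genes. By deposited TPM the count was also 4, but Smarca2 fell short of the limit at 0.44 and Smarcc2 reached it at 0.50, whereas Chd3, Smarcd3 and Smarca1 passed on both measures. At a mean count of 1000 or more, the count by TMM was 3 of 29 members, a larger share than the 2.12% of 7408 genes. Again 0 were lower, against 1.13%. This difference in share was not tested. Of these 29, the interval lay above 0 for 12, against 27.7% of genes, and below 0 for 8, against 43.1%. The lowest difference was that of Chd7, at -0.36 (-0.41 to -0.31). The members' median was 0.04, against 0.01 over all genes. Abundant members such as Smarcc1 (0.03), Ss18 (0.02) and Dpf2 (0.01) lay near 0. Scaling by the spike-ins moved the median of all genes to 0.26 and that of the members to 0.29, with Chd3 at 1.13, Chd7 at -0.11 and 6 members higher by at least 0.5, so these differences are to be read relative to the bulk of genes.

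Each of the 4 higher members is the lower paralog of its position, and with them the ratio to the leading paralog narrowed in replicate 2. The 4 were picked for being higher in replicate 2, so this narrowing is largely built into the choice. It is also not particular to them: the ratios of Smarcc1 to Smarcc2 and of Chd7 to Chd8 narrowed too, while that of Smarcd1 to Smarcd2 widened. Markers of skeletal muscle and cartilage were also higher in replicate 2. Of 6 skeletal muscle markers, 5 were higher in replicate 2 by at least 0.5, with a median difference of 1.64 and summed levels of 22.9 and 75.1 TPM, and all 6 reached 1 TPM in both libraries. All 4 cartilage precursor markers were higher, with a median of 1.02 and summed levels of 166 and 367 TPM, although Acan was only at 0.0300 and 0.180. Neuron markers had a median difference of 0.03 over 7 tested genes and none was higher by 0.5. Of 5 heart markers tested, 2 were higher by at least 0.5 (Tnnt2 by 0.85 and Myh7 by 0.90), the median was 0.45 and the summed levels were 12.2 and 14.4 TPM, with Nkx2-5 at 0.0800 and 0.100. Limb mesenchyme markers had a median of -0.17 and summed levels of 582 and 674 TPM. Among them Pitx1, a hindlimb factor, was at 65.0 and 127 TPM (difference 0.79), and Tbx5, a forelimb factor, at 28.8 and 26.4 (-0.26). Erythroid markers had a median of -0.34. The part of these cell types, or of the mix of fore- and hindlimbs, in the differences of Chd3, Smarca2, Smarcd3 and Smarca1 was not tested, and pool and library cannot be told apart.

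**Figure D4:**
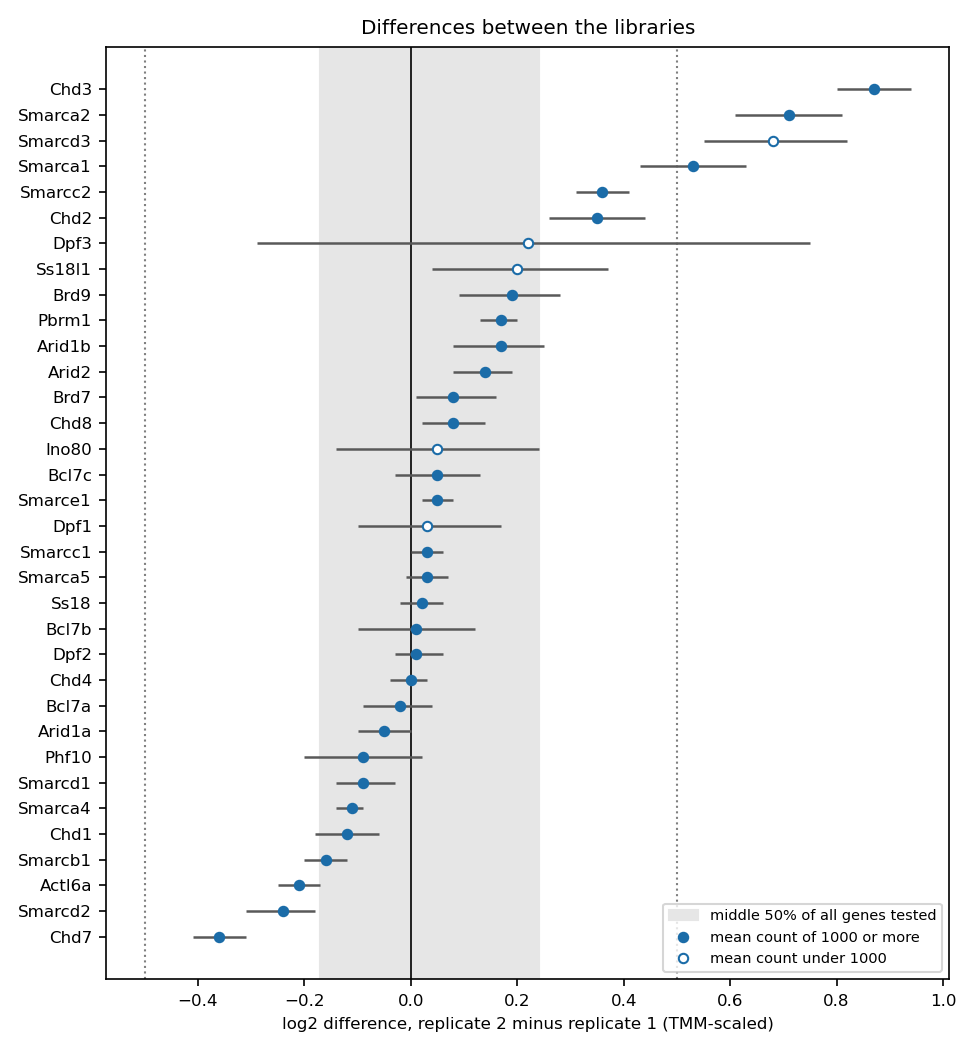
Log2 difference between the libraries (replicate 2 minus replicate 1, TMM-scaled counts) for the 34 members with counts, with lines for the 95% counting interval, a grey band for the middle 50% of all genes tested and dotted lines at 0.5 either way. Chd3 (0.87), Smarca2 (0.71), Smarcd3 (0.68) and Smarca1 (0.53) lie beyond the upper dotted line and none lies beyond the lower.

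Other genes of the remodeler complexes were read from 4 lists. Of 12 NuRD genes, 11 were expressed, with a median of 117 TPM. Rbbp4, a histone chaperone, had 480.5, the methyl-CpG family protein Mbd3 had 387 and Rbbp7 had 358, whereas Chd5, a neuronal CHD enzyme, was at 0.02 and 0.01 TPM. All 9 partners of ISWI were expressed (median 32.2 TPM), led by the histone-fold proteins Pole3 (95.8) and Chrac1 (67.7) and by Baz1b (50.8). All 15 genes of the INO80, SRCAP and EP400 complexes were expressed, with a median of 49.1 TPM. The AAA+ ATPases Ruvbl1 (206) and Ruvbl2 (195), shared by these complexes, and Mcrs1 (144) led, far above Ino80 itself at 2.88, and Ino80d (8.81) was lowest. The list of other helicases and BAF partners had all 12 expressed, with a median of 26.7 TPM. Beta-actin (Actb), a SWI/SNF subunit as well as a cytoskeletal protein, was at 6064, the helicase Atrx at 150.3 and Hells at 74.5, and Bicral, an ncBAF subunit, was lowest at 2.85. Of the 47 genes tested in these lists, 2 were higher in replicate 2 by at least 0.5, against 12.2% of all genes, and none was lower, against 5.89%. Both were BAF-associated zinc-finger factors: Bcl11a at 34.5 and 62.9 TPM (difference 0.81) and Bcl11b at 4.46 and 6.53 (0.59).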

How the data were processed

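Total RNA of 2 pools of mouse limbs (69 and 51 embryos) was sequenced as 1 library each. Per the labels and notes deposited with the files, reads were placed on mm10 with GENCODE M4 and each library was quantified by itself from transcriptome alignments; aligner, quantifier and strand setting are not stated there. The deposited gene and transcript tables hold expected counts (estimated, unscaled), TPM per transcript length over all rows, spike-ins included, and the percent of a gene's TPM in each transcript. Interval bounds on TPM were deposited with no stated level. Depth was 40509328 and 43983028 expected counts. Whole-library checks and 95% exact binomial intervals cover counting error only, and nothing in the labels ties the pools to separate litters.

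Gene symbols, transcript classes and coding sequences came from GENCODE M21 (GRCm38), matched by identifier; 2 of 222 member transcripts had no match. Levels were compared as deposited TPM. Library differences were log2 CPM with TMM scaling and a prior count of 2 (edgeR 4.0.16), on genes whose mean count reached 10, tested on simulated data first. DESeq2 1.42.0 size factors, spike-in scaling, other minimums and coding transcripts served as alternatives. Python 3.11.15, pandas 2.3.3, numpy 2.4.6 and matplotlib 3.10.9 were used. Expected counts were rounded for the intervals. All members could be named; of each other list, the 3 highest, the lowest and those differing by 0.5 or more were. The members and lists were chosen with earlier results of these data known, and the near-full-length limit of 80% was set after seeing the data.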

Additional observations from a re-analysis of the deposited data

How the results depend on the processing

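With TMM scaling and the limit raised to 1 log2, 0 members differed between the libraries. Chd3 was past it at 1.13 with spike-in scaling, 1.01 by deposited TPM and 1.04 over near-full-length transcripts. Smarca2 was past it at 1.66 over near-full-length transcripts, a measure that is uncertain for this gene, as described above. Over protein-coding transcripts the BAF, PBAF and ncBAF shares moved to 37.6%, 53.8% and 8.55%, and over near-full-length transcripts (an alternative chosen after seeing the data) to 49.1%, 38.4% and 12.5%. The mean log2 ratio of Brd7 to Brd9 reversed to -0.09 under both of these choices, and that of Chd7 to Chd8 to -0.70 over near-full-length transcripts; these shares and reversals follow from which transcripts are summed. The number of members expressed stayed between 31 and 34 under every alternative run. By intervals in 1 library alone, 24 of 24 paralog pairs were apart in replicate 1 and 22 in replicate 2. With a 1.5-fold limit in place of the intervals, 20 pairs passed over all transcripts, 16 over protein-coding and 18 over near-full-length transcripts. No other pair that was called changed its order. No paired analysis was possible because there is only 1 group. Depth limits Actl6b (no counts), Dpf3 (56 and 75 counts) and Ino80 (426 and 507 counts).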
